A study of Mus musculus with 6 samples.

Results

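The collagen genes of mouse neural stem cells were compared between wild type and Smchd1 null libraries. Members were the records whose Entrez ID mapped to a symbol of the form Col, digits, a, digits. This rule used names and no measured value, but it was set with earlier results of these data known. There were 44 such genes among 27179 records, and 28 of them were abundant enough to be tested. The cells came from brains of male mouse embryos (E14.5), of the strain given as C57BL/6 x FVB/N. The wild type group (n = 3) is labelled Smchd1 wild-type, and the null group (n = 3) carries Smchd1MommeD1/MommeD1, which the labels call Smchd1 null. All cultures received EGF and bFGF at 20 ng/ml each and grew on polyornithine (15 ng/ml) and laminin (10 ng/ml), so a basement membrane protein was supplied with the plate. The labels do not say whether the replicates were separate derivations, so p-values measure only the spread between these libraries, which may be technical.

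Collagens are secreted or membrane proteins whose chains wind around each other in triple helices of repeated glycine-X-Y units. Fibrillar collagens build banded fibres, type IV collagens build the sheet of the basement membrane, and FACIT collagens sit on the surface of fibres. In the embryonic brain, basement membrane collagens lie under the pia and around vessels, where the end feet of neural progenitors attach.

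The library totals ran from 18608881 to 23253367 counts, and values below are CPM, depth-scaled counts with TMM scaling of the library size. Smchd1 itself checked the labels, with 232 to 271 CPM in the wild type libraries and 27.9 to 31.1 CPM in the null libraries. Wild type replicate 3 stood apart: 58.3% of its counts lay in 6 records, against 5.84% to 11.7% elsewhere, which left it an effective depth of 10.1 M counts against 21.3 to 25.8 M. Its sample name carries the number 14, next to 11, 12 and 13 of the null libraries, while those of wild type replicates 1 and 2 come from a separate range of numbers. Wild type replicate 3 is therefore set beside the other wild type libraries for the collagens described one by one, and refits without it are given where they change a call or a size. Once it is left out, the genotypes fall in separate ranges of sample-name numbers. Genotype and name range cannot be told apart in those refits. Neural stem cell markers were present in all 6 libraries, with Nes at 1154 to 1359 CPM and Sox2 at 252 to 285 CPM.

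A few printed stretches show the start regions of the paired type IV genes and of Col11a1. They were taken from the RefSeq promoter table of the GRCm38.p6 assembly, the build of the mm10 genome, which had a window for 35 of the 44 members. Col4a1 and Col4a2 are transcribed in opposite directions, with starts 21 bases apart and gene spans that overlap by 85 bases. The 30 bases around both starts are shown on the strand of Col4a2 (chr8:11312801-11312830), and most of them lie inside both spans. For Col4a5 (chrX:141475169-141475369, plus strand), Col4a6 (chrX:141474096-141474326, minus strand) and Col11a1 (chr3:114030290-114030478, plus strand) the stretch ends before the outermost annotated start. Capitals mark the GC box (GGGCGG or its reverse complement CCGCCC) and the CCAAT box (CCAAT or ATTGG). The TATA box (TATAAA or TTTATA) was searched as well and was in none of the 4 stretches.
Col4a1 and Col4a2: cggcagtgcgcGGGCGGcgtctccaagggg
Col4a5: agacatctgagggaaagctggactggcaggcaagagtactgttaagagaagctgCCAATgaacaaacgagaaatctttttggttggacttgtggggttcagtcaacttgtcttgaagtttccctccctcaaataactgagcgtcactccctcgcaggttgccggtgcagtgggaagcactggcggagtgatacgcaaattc
Col4a6: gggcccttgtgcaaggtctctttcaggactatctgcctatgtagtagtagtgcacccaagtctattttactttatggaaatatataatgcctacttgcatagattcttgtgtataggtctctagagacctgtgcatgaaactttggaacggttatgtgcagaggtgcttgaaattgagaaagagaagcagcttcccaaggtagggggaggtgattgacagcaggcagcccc
Col11a1: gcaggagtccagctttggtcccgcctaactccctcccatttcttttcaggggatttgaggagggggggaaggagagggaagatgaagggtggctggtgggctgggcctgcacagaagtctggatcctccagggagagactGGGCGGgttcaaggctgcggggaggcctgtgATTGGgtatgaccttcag

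Over whole windows of 300 bases, 23 of the 38 collagen windows (60.5%) held a GC box on either strand, against 35.7% of all 32851 windows. A CCAAT box was in 34.2% of the collagen windows and 37.4% of all, and a TATA box in 13.2% and 13.6%. The median collagen window held 59.8% G or C, against 52.7% over all windows, and the GC box is itself made of these bases. These matches describe letters only. The windows of Col4a1 and Col4a2 were dense in CpG, with 37 and 33 per 300 bases, while those of Col4a5, Col4a6 and Col11a1 held 11, 3 and 9.

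The collagen repertoire of these cells was narrow. Of the 44 genes, 9 had a mean of at least 10 CPM and 21 a mean of at least 1 CPM. Per length, as mean CPM per kb of deposited gene length, the order was led by Col9a3 (17.9), Col18a1 (17.3), Col16a1 (10.05) and Col11a1 (8.81). Then came Col5a2 (6.00), Col5a1 (5.64), Col4a5 (4.39), Col4a1 (3.05), Col26a1 (2.31) and Col12a1 (2.18). The first 4 held 62.5% of the summed collagen CPM per kb, and the first 10 held 89.7%. The ranges over the 6 libraries overlapped between each pair of neighbours in this order except Col5a1 and Col4a5. Such overlap does not settle an order, since genes can keep it within each library. Per length, the Col4a1 to Col4a5 ratio stayed below 1 throughout (0.457 to 0.824). The ratios of Col11a1 to Col5a2 (0.498 to 2.82) and of Col5a1 to Col5a2 (0.594 to 1.37) lay on both sides of 1.

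**Figure D1:**
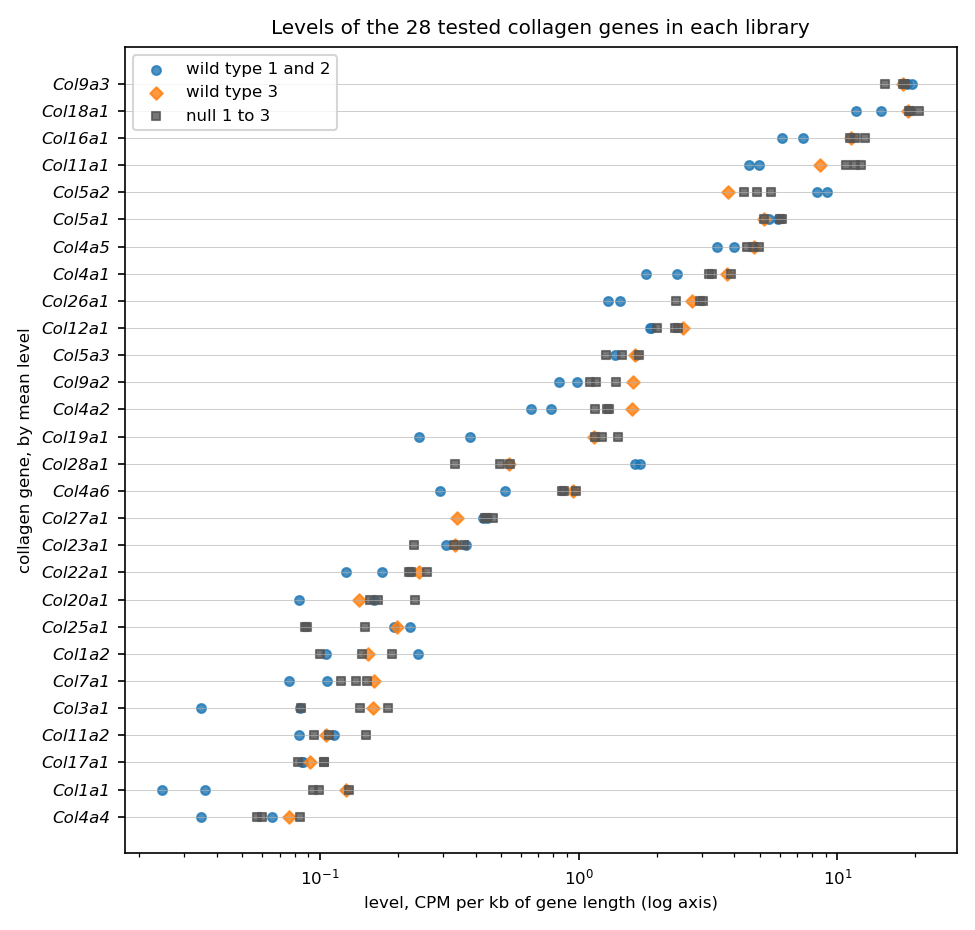
Level of each of the 28 tested collagen genes (rows, by mean level) in CPM per kb of gene length on a log axis, 1 point per library (circles: wild type replicates 1 and 2, diamonds: wild type replicate 3, squares: null). Col9a3 and Col18a1 lead, and for Col16a1, Col4a1, Col26a1 and Col19a1 the diamond lies at or next to the squares.

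Type I, III and VI collagens were scarce, while the type V chains Col5a1 and Col5a2 and the FACIT chain Col12a1, which fibroblasts also make, were among the 10 highest. Col1a1 and Col1a2, the chains of type I collagen, and Col3a1 stayed at or below 1.24 CPM in every library. All 6 type VI genes, which form beaded filaments, fell short of the level needed for testing, and Col6a1, the most abundant of them per length, had 11 counts over the wild type and 22 over the null libraries. Among the 16 untested genes the highest value in any library was 0.595 CPM, that of Col2a1, the cartilage collagen. Col15a1 had 1 count over all 6 libraries. Col9a1 had 3 counts over the wild type and 23 over the null libraries, Col6a5 had 1 and 23, and Col6a3 had 9 and 29. None of these 3 was tested over all 6 libraries. Col6a3 passed the filter and was called higher in null once wild type replicate 3 was left out (log2 fold change 1.42 ± 0.51, edgeR adjusted p = 0.0362). That fit called 19.7% of all genes higher. Col6a3 had 8 counts over wild type replicates 1 and 2 and passed the filter only through the null libraries, where it was high. Its call therefore gives no support. Among libraries 11 to 14 the log2 fold changes were 2.09 ± 1.21 for Col6a3 and 1.76 ± 1.34 for Col6a5. Both passed the filter there through the null libraries, with 1 count each in wild type replicate 3. Of the fibroblast and meningeal markers, decorin (Dcn) had 0 counts over the wild type and 3 over the null libraries, and lumican (Lum) had 3 and 4. Cdh5, an endothelial marker, had 0 in both groups. Other members of these lists were higher: 5 of 12 fibroblast and meningeal and 4 of 10 endothelial markers were abundant enough to be tested. The summed levels of both lists are given with the other markers below.

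None of the 28 tested collagen genes passed the edgeR quasi-likelihood test at an adjusted p of 0.05 in the comparison of all 3 null with all 3 wild type libraries. Over all 14207 genes tested, 0.577% passed, 0.507% higher and 0.0704% lower in null. At an unadjusted p under 0.05 there were 6 collagens (21.4%), against 18.6% of all genes. The limma-voom test also called 0 (1.02% of all genes, 0.816% higher and 0.204% lower), while DESeq2 called 2 (2.80% of all genes), Col11a1 higher (1.25%) and Col28a1 lower (1.56%). The groups did not overlap for 4 collagens (14.3%), Col11a1, Col18a1, Col19a1 and Col25a1, against 22.0% of all genes. By value, 21 of the 28 log2 fold changes were above 0, with a median of 0.26, against 50.3% above 0 and a median of 0.00 over all genes. In these bulk samples, a change in the number of cells of a type cannot be told apart from a change in RNA per cell.

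Summed over all 44 genes, collagens took 0.046% and 0.047% of the counts of wild type replicates 1 and 2, 0.026% of replicate 3, and 0.061% to 0.062% in the null libraries. After the 6 dominant records were left out of the total, replicate 3 stood at 0.062%, between 0.0497% and 0.0498% in the other wild type libraries and 0.067% to 0.070% in the null. The null mean was above the wild type mean on both scales, by 0.022 and 0.014 percentage points. The exact permutation test (two-sided) gave p = 0.1 for each, the smallest p that 3 against 3 libraries allow.

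Among fibrillar collagens, Col11a1 (Entrez 12814, chromosome 3, 114030479 to 114220756) had the smallest p of all members. It encodes a chain of type XI collagen, a regulator of fibril diameter. It had 36.3, 33.0 and 62.2 CPM in wild type replicates 1 to 3, and 85.0, 78.4 and 89.7 CPM in null replicates 1 to 3. Every null library was above every wild type library, and wild type replicate 3 lay between the other wild type libraries and the null. The null mean was 1.92 times the wild type mean (84.4 ± 5.70 against 43.8 ± 16.0 CPM, SD, n = 3). On the log2 scale the difference was 0.97 ± 0.23 (SE; edgeR adjusted p = 0.139, DESeq2 adjusted p = 0.000528).

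The size of that difference turned on 1 library. Without wild type replicate 3 the log2 fold change of Col11a1 was 1.28 ± 0.07 (edgeR adjusted p = 1.485e-09). In that fit a difference by genotype cannot be told apart from a difference by sample-name range. With the range of sample-name numbers added as a term, the log2 fold change of Col11a1 was 0.44 ± 0.09 (edgeR adjusted p = 0.0288). The genotype difference is then wild type replicate 3 against the null libraries, since the other wild type libraries are alone in their range. Among the libraries named 11 to 14 alone, the log2 fold change of Col11a1 was 0.44 ± 0.09. Wild type replicate 3 is the only wild type library there and is assumed to vary like the null ones. Both fits make the same comparison and are not separate results. Col11a1 was the only collagen called with the term, 1 of 28, against 1.31% of all genes (0.542% higher, 0.767% lower), and the only one called among libraries 11 to 14, 1 of 30, against 2.55% of all genes (0.853% higher, 1.69% lower).

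The other fibrillar chains differed in pattern. Col5a1, a type V chain that starts fibril assembly, had 43.7 to 49.6 CPM in the wild type and 43.9 to 51.3 CPM in null, and its log2 fold change was 0.07 ± 0.09 (edgeR adjusted p = 0.677). Col5a2, its partner chain, had 55.0, 60.4 and 25.004 CPM in wild type replicates 1 to 3 and 32.4, 36.5 and 28.9 CPM in null. The lowest of the 6 was wild type replicate 3, below every null library. The log2 fold change of Col5a2 was -0.54 ± 0.32 over all libraries (edgeR adjusted p = 0.384), -0.83 ± 0.08 once wild type replicate 3 was left out (4.64e-06), and 0.38 ± 0.14 with the sample-name term (adjusted p = 0.238), so its direction turned with the term.

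Ratios between chains within a library do not depend on scaling between libraries. Per length, the Col5a1 to Col5a2 ratio was 0.710 and 0.594 in wild type replicates 1 and 2, 1.37 in replicate 3 and 1.09 to 1.24 in the null. The Col11a1 to Col5a2 ratio, between fibril-forming chains that can share a fibre, was 0.599 and 0.498 in wild type replicates 1 and 2. It was 2.26 in wild type replicate 3 and 1.95 to 2.82 in the null libraries. On both ratios wild type replicate 3 was within or above the null range and not near the other wild type libraries. Col1a1, a type I chain, rested on 13 counts over the wild type and 33 over the null libraries (log2 fold change 1.14 ± 0.53, edgeR adjusted p = 0.287, and 1.79 with 0.0103 leaving out wild type replicate 3).

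**Figure D2:**
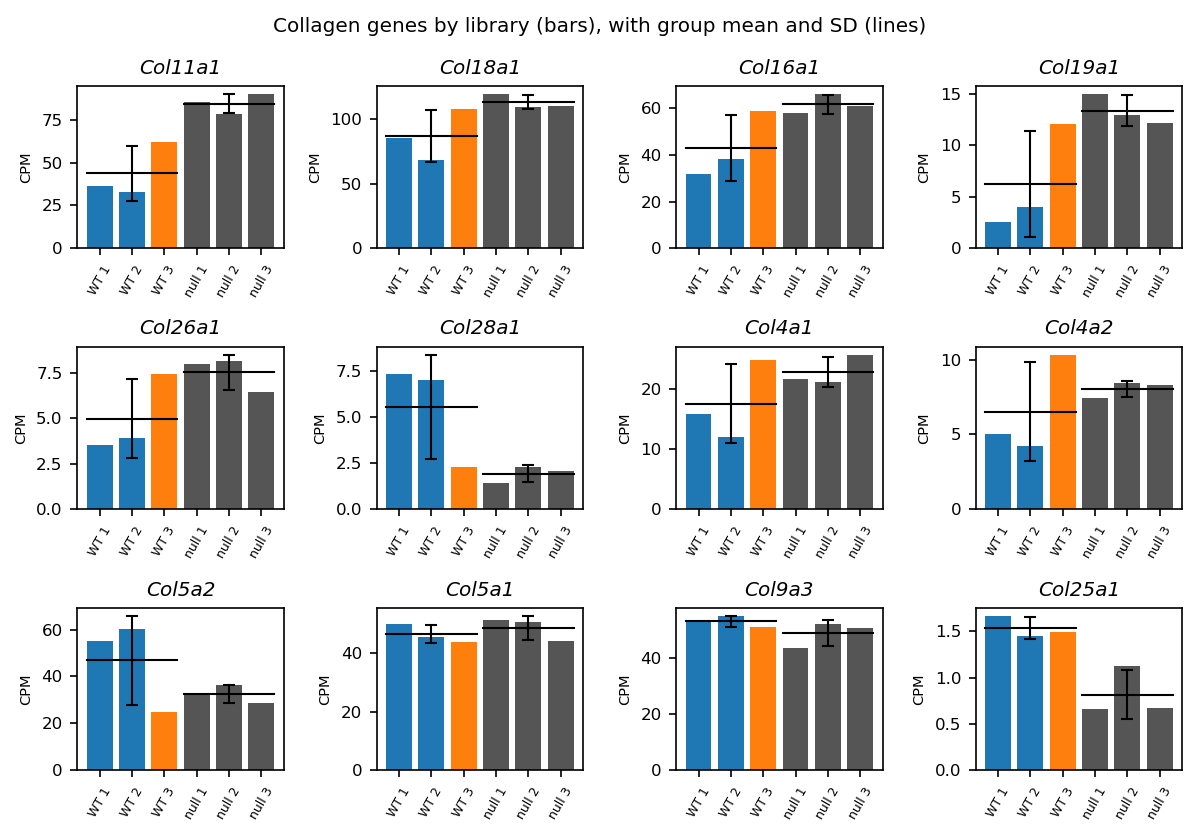
CPM of 12 collagen genes in each library (bars: blue for wild type replicates 1 and 2, orange for wild type replicate 3, grey for null), with the group mean and SD as lines (n = 3). Wild type replicate 3 is near the null libraries for Col16a1, Col19a1, Col26a1, Col28a1, Col4a1 and Col5a2, and in between for Col11a1, while Col5a1, Col9a3 and Col25a1 show no such split among wild type libraries.

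Type IV collagens form the network of the basement membrane from trimers of defined chain partners. Col4a1 (chromosome 8, 11198423 to 11312889) had 15.8, 12.1 and 24.7 CPM in wild type replicates 1 to 3 and 21.6, 21.0 and 25.6 CPM in null. Its head-to-head partner Col4a2 (chromosome 8, 11312805 to 11449287) had 5.04, 4.22 and 10.3 CPM in the wild type and 7.42, 8.43 and 8.29 CPM in null. For both, wild type replicates 1 and 2 were the lowest libraries, and replicate 3 lay within the null range for Col4a1 and above it for Col4a2. Per length the Col4a1 to Col4a2 ratio was 2.72 ± 0.37 in wild type and 2.75 ± 0.30 in null (SD, n = 3), so the ratio differed by less than its spread while the level of the pair varied. The reads did not mark strand, and the exons of the pair share 22 bases in GENCODE M21, 0.29% of the exon bases of Col4a1.

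The X-linked pair Col4a5 and Col4a6, whose starts lie 1343 bases apart, also had its lowest values in wild type replicates 1 and 2. Col4a5 had 22.2, 26.0 and 31.1 CPM in wild type replicates 1 to 3 and 29.1, 32.2 and 30.6 CPM in null. Col4a6 had 1.94, 3.45 and 6.35 CPM in the wild type and 5.83, 6.51 and 5.75 CPM in null. Here the ratio varied, at 11.7 and 7.69 in wild type replicates 1 and 2, 5.00 in replicate 3 and 5.06 to 5.44 in the null libraries. Of the other type IV chains, those of the mature kidney filter, Col4a4 was tested at a mean of 0.492 CPM and Col4a3 fell short of testing.

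No type IV gene was called over all libraries, with log2 fold changes of 0.42 ± 0.24 for Col4a1, 0.38 ± 0.30 for Col4a2, 0.23 ± 0.12 for Col4a5 and 0.73 ± 0.36 for Col4a6 (edgeR adjusted p = 0.310 or more). Without wild type replicate 3 these 4 were called higher in null, at 0.70, 0.79, 0.34 and 1.17 (edgeR adjusted p = 0.000225 to 0.00335). That fit called 19.7% of all genes higher. Col4a4, the other tested type IV gene, was not called in it (0.43 ± 0.42, edgeR adjusted p = 0.441). With the sample-name term the point estimates of the 4 were -0.12, -0.36, -0.02 and -0.08, none of them called. Col4a2, Col4a6 and the untested genes named above were picked after their values were seen.

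FACIT collagens carry interrupted helices and attach to fibres. Col9a3, a type IX chain, had the highest mean level per length over all 6 libraries. In the null mean Col18a1 stood above it (19.5 against 17.1 CPM per kb), and in the wild type mean below it (15.1 against 18.6). Col9a3 had 53.0, 55.1 and 51.0 CPM in the wild type and 43.5, 52.1 and 50.7 CPM in null. The groups overlapped and its log2 fold change was -0.12 ± 0.09 (edgeR adjusted p = 0.437). Its exons share 234 bases (6.07%) with Tcfl5 on the opposite strand, whose reads cannot be told apart there. The other chains of type IX were scarce: Col9a2 had 2.30 to 4.47 CPM, and Col9a1 was not tested. Per length, Col9a3 stood 11.02 to 23.1 times above Col9a2.

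Col16a1, a FACIT chain found near basement membranes, had 31.8, 38.3 and 58.6 CPM in wild type replicates 1 to 3 and 57.9, 66.3 and 60.9 CPM in null. Only wild type replicate 3 overlapped the null range. Its log2 fold change was 0.54 ± 0.21 (edgeR adjusted p = 0.239), 0.81 leaving out wild type replicate 3 (2.52e-06) and 0.07 with the sample-name term (adjusted p = 0.837). Col19a1 showed the widest split, with 2.56, 4.01 and 12.1 CPM in the wild type and 15.0, 12.98 and 12.2 CPM in null. Just under the lowest null library lay wild type replicate 3, and the log2 fold change moved from 1.26 ± 0.54 over all libraries (edgeR adjusted p = 0.282) to 2.03 without it (2.64e-07) and 0.14 with the term (0.817). Col12a1, a long FACIT chain, overlapped between the groups, at 24.5 ± 4.28 CPM in the wild type and 26.3 ± 2.61 CPM in null (SD, n = 3; log2 fold change 0.12 ± 0.13, edgeR adjusted p = 0.618, and 0.25 with 0.0313 leaving out wild type replicate 3).

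Col18a1, a heparan sulfate collagen of basement membranes whose C-terminal fragment is endostatin, had 85.4, 68.2 and 108.1 CPM in wild type replicates 1 to 3. The null libraries had 119.7, 109.4 and 110.5 CPM, all above wild type replicate 3 by a small margin and well above the others. Its log2 fold change was 0.38 ± 0.15 over all libraries (edgeR adjusted p = 0.240), 0.56 ± 0.09 leaving out wild type replicate 3 (0.000557) and 0.07 ± 0.11 with the sample-name term (adjusted p = 0.860).

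By value, 7 of the 28 lay lower in null. Col28a1, a collagen with von Willebrand factor A domains, had 7.32 and 6.99 CPM in wild type replicates 1 and 2, 2.28 CPM in replicate 3 and 1.41, 2.30 and 2.10 CPM in null. Here too wild type replicate 3 sat inside the null range. Its log2 fold change was -1.58 ± 0.40 (edgeR adjusted p = 0.143, DESeq2 adjusted p = 0.0156), -1.89 without wild type replicate 3 (edgeR, 4.84e-07) and -0.24 with the sample-name term (0.837). Col26a1 showed the mirror image at a similar level, with 3.53, 3.92 and 7.44 CPM in the wild type and 7.99, 8.15 and 6.42 CPM in null (0.67 ± 0.27, edgeR adjusted p = 0.240). For Col26a1 the value was 1.01 without wild type replicate 3 (edgeR adjusted p = 6.98e-05) and 0.01 with the sample-name term (0.987).

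Col25a1, a transmembrane collagen of neurons, did not show that split, and neither did Col9a3, Col5a3, Col23a1 and Col1a2, the others lower in null by value apart from Col28a1 and Col5a2. It had 1.67, 1.45 and 1.49 CPM in wild type replicates 1 to 3 and 0.658, 1.12 and 0.669 CPM in null, so the groups did not overlap and wild type replicate 3 lay among the other wild type libraries. The log2 fold change of Col25a1 was -0.91 ± 0.27 over all libraries, -0.94 without wild type replicate 3 and -0.86 with the sample-name term. Its edgeR adjusted p was 0.175, 0.0144 and 0.444 in these fits. In wild type replicate 3 there were only 15 counts of it, so its counting error is large.

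**Figure D3:**
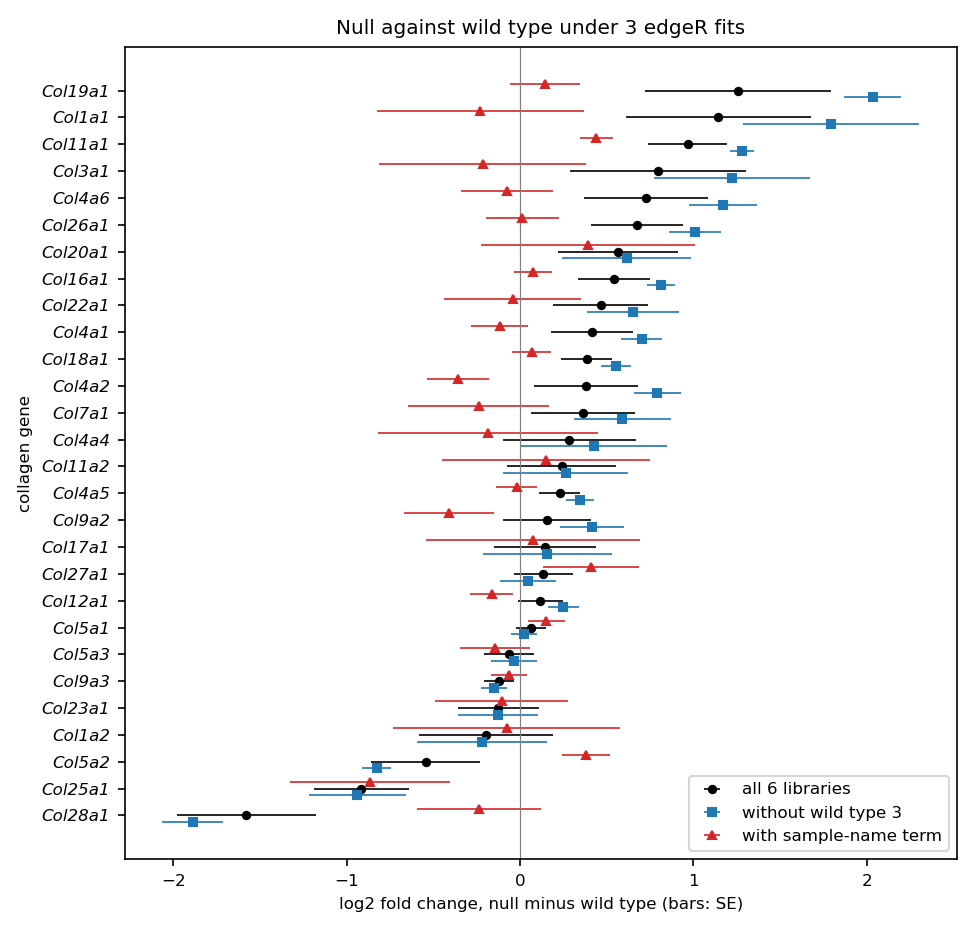
Log2 fold change, null minus wild type, with SE bars, for the 28 tested collagens under 3 edgeR fits: all 6 libraries (black circles), without wild type replicate 3 (blue squares) and with the sample-name term (red triangles). Only Col11a1 is called among the triangles, and Col25a1 keeps nearly the same value in all 3 fits.

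Over the members as a whole, the fit without wild type replicate 3 called 16 of 29 collagens (55.2%), against 39.2% of all genes. Of these, 13 were higher in null (19.7% of all genes) and 3 lower (19.4% of all genes). The 13 include Col6a3, which passed the filter only through the null libraries. Fitted with quality weights, which set wild type replicate 3 to a weight of 0.215, limma-voom also called 16 of 28, against 36.8% of all genes (19.3% higher, 17.5% lower). With the sample-name term, 11 of 28 point estimates were above 0 and the median was -0.07. For 16 of 28 collagens (57.1%) wild type replicate 3 lay inside the range of the null libraries, against 34.0% of all genes. It was over 2-fold above the mean of wild type replicates 1 and 2 for 5 collagens (5.31% of all genes) and over 2-fold below it for 2 (0.978%), together 25% of them against 6.29% of all genes. These descriptions share libraries with each other and are not independent.

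Some cell type markers moved with the same split. Without wild type replicate 3, edgeR called 10 of 11 tested oligodendrocyte lineage markers higher in null (median log2 fold change 1.04, against -0.24 with the sample-name term). In the same fit 19.7% of all genes were called higher and 19.4% lower. Of 8 astrocyte markers 5 were called higher and 2 lower in that fit (median 0.96, against -0.34 with the term), and of 4 neural crest and Schwann markers 2 were called higher (0.94 against -0.45). The summed level of 12 oligodendrocyte lineage markers was 806 and 726 CPM in wild type replicates 1 and 2, 1171 in replicate 3 and 997 to 1082 in null. Pdgfra, which marks oligodendrocyte precursors and fibroblasts, had 17.1 and 18.3 CPM in wild type replicates 1 and 2, 167 in replicate 3 and 112.6 to 137.5 in null. The 12 fibroblast and meningeal markers summed to 79.3, 75.0 and 224 CPM in the wild type and to 189 to 201 CPM in null, and Pdgfra made up most of the difference, since 8 of the 12 stayed under 1 CPM in all libraries. The 10 endothelial markers summed to 6.52 to 6.74 CPM in the wild type and 5.07 to 5.90 CPM in null, with 7 under 1 CPM throughout. Pericyte and mural markers summed to 29.3 to 42.5 CPM in the wild type and 29.9 to 36.7 CPM in null, most of it Notch3. Cartilage markers summed to 1.96 to 2.21 CPM and 2.16 to 3.29 CPM, with 6 of 8 under 1 CPM in all libraries. The part of these cell types in the collagen values was not tested.

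The genes that make, modify, bind and break down collagen formed 8 lists of 148 distinct genes, of which 110 were tested. None passed the edgeR test, while 35 (31.8%) had an unadjusted p under 0.05, against 18.6% of all genes. The limma-voom test called 1 higher and 1 lower, Lama1 and Mmp2 (0.816% and 0.204% of all genes). DESeq2 called 2 higher and 14 lower (1.25% and 1.56% of all genes). The edgeR fit that left out wild type replicate 3 put 15 higher and 36 lower (19.7% and 19.4% of all genes). Adding the sample-name term gave 0 higher and 2 lower (0.542% and 0.767% of all genes).

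Among 25 tested biosynthesis genes the median log2 fold change was -0.15. Serpinh1, the collagen chaperone Hsp47, had 496, 460 and 314 CPM in wild type replicates 1 to 3 and 272, 310 and 289 CPM in null. Its groups did not overlap, as for 22.0% of all genes, with wild type replicate 3 the closest to the null (log2 fold change -0.55 ± 0.16, edgeR adjusted p = 0.174). Sparc, a collagen-binding matricellular protein, had 178, 180 and 179 CPM in the wild type and 122, 152 and 124 CPM in null, and here the 3 wild type libraries lay together (-0.43 ± 0.09, edgeR adjusted p = 0.0967). Leaving out null replicate 2 brought Sparc, alone among the partner genes, past the threshold (-0.55 ± 0.07, edgeR adjusted p = 0.0471). Ppib, a prolyl isomerase of the collagen folding complex, stood at -0.24 ± 0.06. P4ha2, a prolyl hydroxylase subunit named after its values were seen, was called lower with the sample-name term (-1.65 ± 0.37, edgeR adjusted p = 0.0373), where wild type replicate 3 was at 3.87 CPM and the other 5 libraries at 0.620 to 1.55 CPM.

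Among 14 tested receptors the median was -0.10. Mrc2, the endocytic receptor that takes up collagen, had 25.9, 23.5 and 15.2 CPM in the wild type and 11.6, 12.4 and 12.6 CPM in null (-0.84 ± 0.18, edgeR adjusted p = 0.101). The integrin subunits Itga2 (-0.49 ± 0.13) and Itgb1 (-0.23 ± 0.07) also stood lower without passing, and Itgb1, the shared partner of the collagen integrins, was high throughout at 844 to 1045 CPM.

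Of 17 tested basement membrane partners, the median was -0.11. Lamb2, a laminin chain, had 59.5, 64.9 and 47.4 CPM in the wild type and 33.9, 40.8 and 39.4 CPM in null (-0.60 ± 0.12, edgeR adjusted p = 0.0961). Lama1, the early embryonic laminin alpha chain, went the other way by value, with 5.08, 6.10 and 7.74 CPM in the wild type and 11.3, 10.4 and 9.50 CPM in null (0.75 ± 0.16, edgeR adjusted p = 0.104). Fbln2, a fibulin and the most abundant of the list, stood at -0.59 ± 0.15. For all 3 the groups did not overlap, as for 22.0% of all genes, and wild type replicate 3 was the wild type library nearest the null. Lamb2 and Lama1 were named for a small p over these same libraries, which favours such a gap.

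The remaining lists held 0 called genes as well. In processing and crosslinking (11 tested, median -0.05), Bmp1, the procollagen C-proteinase, had 78.8 to 89.0 CPM over all libraries with no split (-0.05 ± 0.07), and the lysyl oxidase relatives Loxl1 and Loxl2 stood at 0.75 ± 0.38 and -0.59 ± 0.30. Once wild type replicate 3 was left out Loxl1 was called at 1.17 (edgeR adjusted p = 0.00689) and Loxl2 stood at -0.37, and the sample-name term turned Loxl1 to -0.21 and put Loxl2 at -1.10, with neither called. In degradation (12 tested, median 0.04), the gelatinase Mmp2 had 27.2, 29.5 and 22.5 CPM in the wild type and 17.1, 18.5 and 18.7 CPM in null (-0.55 ± 0.11, edgeR adjusted p = 0.0818). Timp4, an inhibitor of metalloproteinases, stood at -0.29 ± 0.08 and the membrane protease Mmp15 at 0.08 ± 0.09.

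Among fibril-associated proteins (12 tested, median 0.00), Matn2, a matrilin, stood at -0.76 ± 0.17 and Fbn2, a fibrillin at 498 to 703 CPM, at 0.26 ± 0.09. In TGF-beta and matrix signalling (15 tested, median -0.24), Smad2, Ltbp1 and Tgfbr1 stood at -0.29 ± 0.08, -0.50 ± 0.13 and -0.28 ± 0.10. All 3 were called lower once wild type replicate 3 was left out, at -0.37, -0.61 and -0.39 (edgeR adjusted p = 2.33e-05 to 6.88e-05), and with the term they stood at -0.13, -0.21 and -0.01, none called. The Sox9 cartilage programme had 4 tested genes, with Sox6 at 0.24 ± 0.12 and Sox5 at 0.10 ± 0.10. Both were called higher without wild type replicate 3 (0.40 and 0.19) and turned with the term (-0.04 and -0.09). Sox9, the activator of Col2a1 and Col11a2 in cartilage, named after its values were seen, had 126 CPM in wild type replicate 3 against 75.0 to 99.5 CPM elsewhere, and it was called lower with the sample-name term (-0.36 ± 0.07, edgeR adjusted p = 0.0158).

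Most other named partner genes were also called without wild type replicate 3, in a fit that called 39.2% of all genes. Like those above, most were named for a small p over all 6 libraries, which include the libraries of this fit. That choice favours such calls, so they give no independent support. Those called were Serpinh1 (-0.72), Sparc (-0.44), Ppib (-0.28), Mrc2 (-1.02), Itga2 (-0.57), Itgb1 (-0.29), Lamb2 (-0.71), Fbln2 (-0.73), Mmp2 (-0.65), Timp4 (-0.28) and Matn2 (-0.94) on the lower side, and Lama1 (0.89) and Fbn2 (0.23) on the higher side. With the sample-name term none of these 13 was called, and the values ran from -0.12 for Serpinh1 to -0.43 for Sparc among the 11 lower, and were 0.42 and 0.33 for Lama1 and Fbn2. Bmp1 and Mmp15 were called in neither fit, and Mmp15 stood at 0.14 and -0.04.

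**Figure D4:**
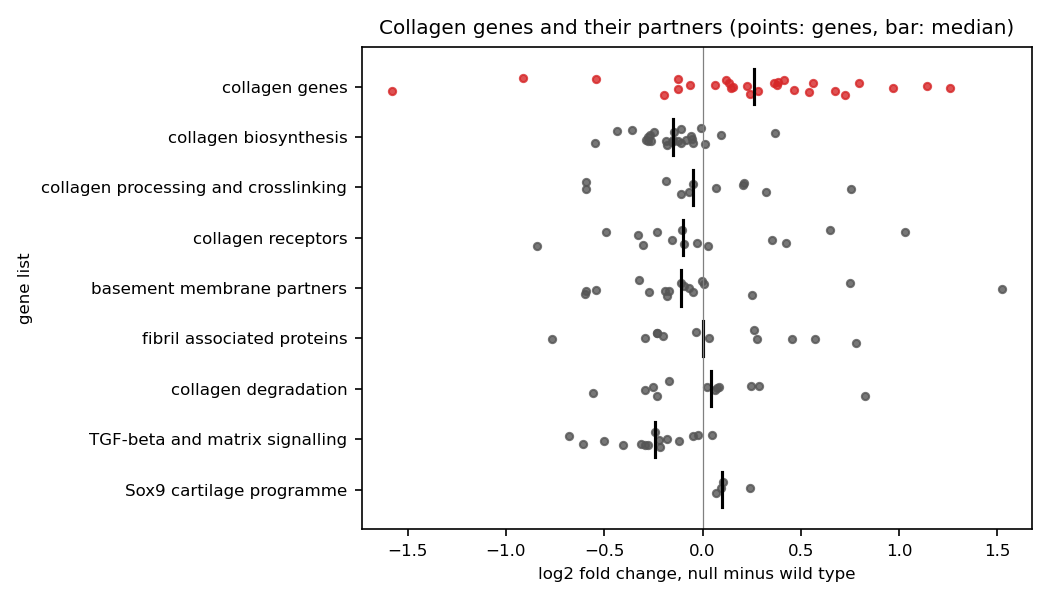
Log2 fold change, null minus wild type, over all 6 libraries for each tested collagen gene (top row, red) and for the tested genes of the 8 partner lists (grey), with the median of each as a bar. The collagen median lies at 0.26, and the list medians lie between -0.24 and 0.10.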

How the data were processed

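Per the file headers, each library has 1 deposited table of Entrez ID, gene length and raw count. Build mm10 and the programs featureCounts, limma 3.22.0, edgeR 3.8.2 and CASAVA 1.8.2 are named in the submitters' processing notes. The sources used here give neither aligner nor annotation. Per the labels' protocols, 1 µg of total RNA went into an Illumina TruSeq v2 kit, which does not mark strand. Symbols and coordinates came from a RefSeq table of GRCm38.p6, which matched 25275 of 27179 IDs (93.0%).

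Deposited counts went into edgeR 4.0.16 under R 4.3.3 (filterByExpr, TMM, robust quasi-likelihood fit on genotype), two-sided, with Benjamini-Hochberg adjustment over all 14207 tested genes at 0.05. SE was the fold change divided by the root of its F statistic. CPM used TMM-scaled library sizes. Ratios of wild type replicate 3 to replicates 1 and 2 used a pseudocount of 0.1 CPM. Alternatives included DESeq2 1.42.0, limma-voom (limma 3.58.1), a replicate block, a sample-name term and leaving out each library. The edgeR step was tested on simulated data.

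Members, gene lists and the rule for named genes (the 10 highest per length, the 8 smallest p, members called with or without the sample-name term, and 3 per partner list) were chosen with earlier results of these data known. Between libraries of a group, the median chi-square per gene was 0.928 to 1.32 for pairs without wild type replicate 3 and 94.2 to 99.9 for pairs with it. The mean was 7.82 to 16.6 for the former pairs, and no pair was treated as 1 library. Expected counts came from raw count sums without TMM scaling, so the composition of wild type replicate 3 enters its values. Counting intervals cover counting error only.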

Additional observations from a re-analysis of the deposited data

How the results depend on the processing

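Of 738 values of 39 named genes under 19 alternatives, 628 kept their direction and their side of the threshold, 88 gained a call and 22 turned direction. All 22 arose with the sample-name term or among the libraries named 11 to 14 alone, where the values were, in that order, 0.38 and 0.38 for Col5a2, -0.0191 and -0.0204 for Col4a5, -0.12 and -0.12 for Col4a1, -0.36 and -0.36 for Col4a2, -0.0753 and -0.0766 for Col4a6, -0.16 and -0.16 for Col12a1, -0.23 and -0.23 for Col1a1, -0.21 and -0.21 for Loxl1, -0.0366 and -0.0378 for Mmp15, -0.0391 and -0.0403 for Sox6, and -0.0922 and -0.0935 for Sox5. Both rest on wild type replicate 3, whose low effective depth limits low genes; the cause was not tested.

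Collagens called higher and lower numbered 0 and 0 over all libraries, 1 and 1 with DESeq2, 13 and 3 with quality weights, 1 and 0 with the sample-name term, and 1 and 0 among libraries 11 to 14. Leaving out 1 library gave 0 to 13 higher and 0 to 3 lower, all of these without wild type replicate 3. Partner genes numbered 2 and 14 with DESeq2, 1 and 1 with limma-voom, 16 and 35 with quality weights, 2 and 3 without a filter, 0 and 2 with the term and 0 and 5 among libraries 11 to 14; leaving out 1 library gave 0 to 15 higher and 0 to 36 lower.

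Over all genes, 72 higher and 10 lower became 177 and 221 with DESeq2, 116 and 29 with limma-voom, 2736 and 2493 with quality weights, 163 and 59 without a filter, 77 and 109 with the term, 126 and 250 among libraries 11 to 14, and 53 and 4 with thinned libraries. Leaving out 1 library gave 29 to 2857 higher and 1 to 2819 lower, the highest without wild type replicate 3. The replicate block gave 48 and 6, and no collagen call. Same-numbered libraries of the groups had correlations of -0.041 to 0.028 in their deviations, against -0.052 to 0.057 for libraries with different numbers. No pairing by number was seen, but deviations from means of 3 libraries, with wild type replicate 3 far from the others, cannot decide it.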
